A study of Homo sapiens with 8 samples.

Results

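The DCAF15 ubiquitin ligase and the factors that control its cullin were followed as messenger RNA in Panc10.05 cells, a line established from a human pancreatic cancer, and in a derivative that had become resistant to indisulam. The 10 genes were taken by name: DCAF15, DDA1, DDB1, CUL4A, CUL4B, RBX1, CAND1, UBE2G1, NEDD8 and COPS5. All 10 passed the filter on low counts, among 16661 genes tested and 60675 listed. No measured value entered their choice, but they were chosen with results of these data known.

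Each of the 4 groups (parental or resistant cells, untreated or on indisulam) had 2 libraries. Parental cells received 2 µM indisulam for 18 h. Per the study's methods, resistant cells had been selected in rising amounts of the drug, the treated ones stayed on 2 µM without a break, and the untreated ones had been off it for 1 week, so drug exposure differed between the lines in length as well as in presence. Whether the resistant line is a clone or a pool is not given in the sources used here. The study calls libraries of a group technical replicates, so the p-values measure the spread between these libraries, not between separate cultures.

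Cullin-RING ligases are modular machines. A cullin (CUL4A or CUL4B) holds the RING protein RBX1 at its C-terminal end, where an E2 enzyme charged with ubiquitin docks, and at the other end the adaptor DDB1, which carries an interchangeable substrate receptor. DCAF15 is such a receptor, DDA1 is a small subunit that sits on DDB1 and stabilises the assembly, and indisulam acts as a molecular glue that brings the splicing factor RBM39 to DCAF15. The ligase is switched on when NEDD8 is attached to the cullin and off when the COP9 signalosome, through its catalytic subunit COPS5, removes it, after which CAND1 can exchange one receptor module for another.

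To place the receptor, its accessory subunit and the exchange factor on the genome, the sites of 1 guide RNA against each are shown, taken from the library of the study's CRISPR resistance screen, with the adjacent PAM in capitals. The DCAF15 site lies in exon 2 of 13 at chr19:13954393-13954412 (GRCh38, plus strand), the DDA1 site spans an edge of exon 2 of 5 at chr19:17314090-17314109 (minus strand), and the CAND1 site lies in exon 5 of 15 at chr12:67297462-67297481 (minus strand).
DCAF15: cgtgtccctcaagaacattgTGG
DDA1: actcaccgaggctttgcacaCGG
CAND1: agtctagggctggtcaactgGGG

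The 250 bases before the DCAF15 start are given because DCAF15 had the largest difference between the lines among the 10 genes. They run from chr19:13952259-13952508 on the plus strand (RefSeq, GRCh38.p14), with matches to CCGGAA (the core bound by ETS factors) and GGGCGG (bound by SP and KLF factors) in capitals, both strands searched.
DCAF15 promoter: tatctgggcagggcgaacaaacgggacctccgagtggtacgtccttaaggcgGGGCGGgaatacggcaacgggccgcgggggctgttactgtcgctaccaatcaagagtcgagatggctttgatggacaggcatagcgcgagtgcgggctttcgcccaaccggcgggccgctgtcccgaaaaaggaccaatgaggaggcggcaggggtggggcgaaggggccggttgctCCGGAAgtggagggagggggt
RefSeq promoter windows were at hand for 8 of the 10 genes, all but DDA1 and COPS5. CCGGAA was found in 3 of the 8 windows and in 14.5% of 35116 windows of all genes, and GGGCGG in 8 of the 8 and in 42.6%. The TATA box letters TATAAA were in 0 of the 8 windows and in 10.7% of all windows.

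DCAF15 and DDA1 stood apart from the other 8 genes, being lower in resistant than in parental cells with and without the drug. In the untreated comparison the log2 difference was -0.80 for DCAF15 and -0.52 for DDA1, whereas the other 8 lay between -0.27 and 0.26. Both genes lie on the short arm of chromosome 19, in a stretch whose other genes were mostly lower as well. In parental cells 7 of the 10 genes rose with indisulam and 0 fell, where 31.6% of all tested genes rose and 26.6% fell (scaled by library totals alone, 6 rose and 2 fell). For 5 of these 7 (DDB1, CUL4B, RBX1, CAND1 and COPS5) the response of the resistant line was lower when the difference itself was tested, as it was for 27.5% of all genes. The 7 were picked by their parental rise, which is subtracted in that difference, so a negative value was favoured. The share over all genes, picked without such a rise, is therefore not a like comparison. With library totals the difference of DDB1, CUL4B and COPS5 was not called. DDA1 and UBE2G1 rose in both lines, as did COPS5 (0.26 in parental and 0.13 in resistant cells).

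The libraries held 65266253 to 108002436 reads in genes, and the 10 genes had between 1540 and 57316 reads per library. In the labels, the notes on culture and drug treatment name A549, a lung line, where the titles have Panc10.05. Summed over NKX2-1, SFTPA1, SFTPB, SFTPC and SCGB1A1, lung epithelial markers reached at most 0.00914 CPM (counts scaled by TMM to a common library size), and all 5 epithelial markers (KRT8, KRT18, KRT19, EPCAM, CDH1) were above 1 CPM in every library. No A549 profile was compared, so these values cannot tell A549 from Panc10.05, and the titles were followed. The epithelial sum moved with the line, at 5569 to 5719 CPM in the parental and 9299 to 10590 CPM in the resistant libraries, as did 5 pancreatic duct markers, at 11.5 to 12.5 and 23.5 to 30.5 CPM. Of the 5 duct markers, 3 were above 1 CPM in every library and 1 was under 1 CPM in every library. The part of the epithelial and duct markers in the differences between the lines was not tested. In bulk RNA, a change in the share of cells of a kind and a change of RNA per cell cannot be told apart.

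**Figure D1:**
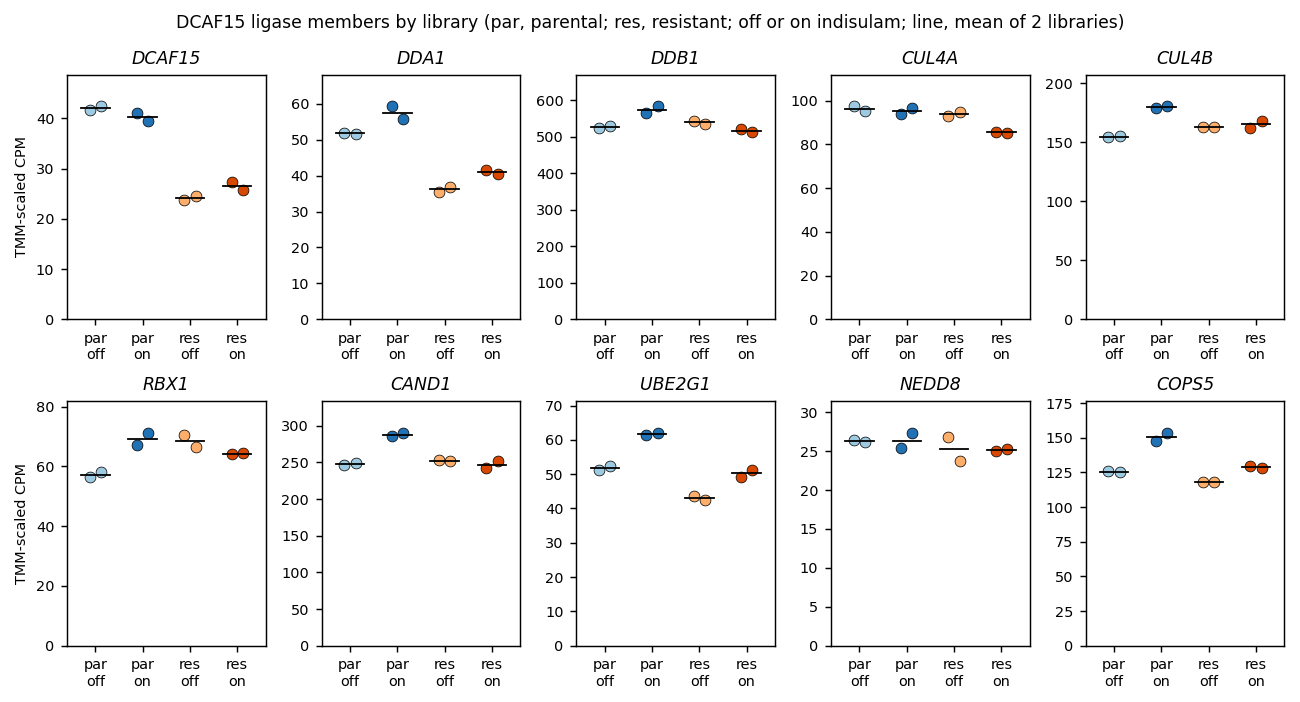
Level of each of the 10 genes in the 8 libraries, in TMM-scaled CPM (y axis from 0), by line (par, parental; res, resistant) and treatment (off or on indisulam); points are libraries and lines are means of 2. DCAF15 and DDA1 are lower in all 4 resistant libraries than in all 4 parental ones, while NEDD8 stays between 23.7 and 27.4 CPM.

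The substrate receptor DCAF15 (ENSG00000132017, chromosome 19, 13952509 to 13961449, plus strand) was measured at 41.6 and 42.4 CPM in parental cells off the drug and 41.05 and 39.6 on it, and at 23.7 and 24.6 CPM in resistant cells off the drug and 27.4 and 25.8 on it. The lines did not overlap: the highest resistant library lay well under the lowest parental one. Without drug, resistant cells had 42.5% less DCAF15 messenger RNA (log2 difference -0.80 ± 0.04, SE; adjusted p 1.6e-14, edgeR quasi-likelihood test), and on drug 34.2% less (-0.60 ± 0.04, adjusted p 2.4e-12). Over every alternative setting these differences ranged from -0.956 to -0.77 and from -1.113 to -0.516, and both stayed past the threshold.

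Indisulam left DCAF15 in parental cells without a detectable change (log2 difference -0.06, 95% interval -0.14 to 0.02, adjusted p 0.18; -0.125 with library totals alone, -0.116 with a minimum mean of 1 CPM and -0.08 with the groups compared alone, all called, but 0.165 and called with the GC and length correction), and in resistant cells it was higher on the drug by 0.14 (adjusted p 0.01). The rise in the resistant line shrank to 0.009 with the GC and length correction (adjusted p 0.86), and it was not called by the DESeq2 Wald test (0.121, adjusted p 0.079), without resistant untreated replicate 1 (0.111) or without resistant indisulam replicate 1 (0.089). The responses differed between the lines by 0.19 ± 0.06 (adjusted p 0.0062), which was not called by the DESeq2 Wald test (0.166, adjusted p 0.071) and turned to -0.157 once GC content and transcript length were corrected for. In the order of the groups, resistant untreated and resistant indisulam differed, as did resistant indisulam and parental indisulam, but parental indisulam and parental untreated did not (adjusted p 0.18).

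DDA1, the accessory subunit on DDB1 (ENSG00000130311, chromosome 19, 17309518 to 17323298, plus strand), had 51.9 and 51.6 CPM in parental cells off the drug and 59.2 and 55.8 on it, against 35.55 and 36.8 in resistant cells off the drug and 41.6 and 40.4 on it. It was the one gene of the 10 whose 4 groups were all separated from their neighbours in the order of levels, with the drug adding to each line and the resistant line lower throughout. Untreated resistant cells had 30.1% less (-0.52 ± 0.04, adjusted p 1.4e-11) and treated ones 28.8% less (-0.49 ± 0.04, adjusted p 2.2e-11). The rises with indisulam were 0.15 in parental (adjusted p 0.00062; 0.092 and not called without parental indisulam replicate 1) and 0.18 in resistant cells (adjusted p 0.0004), and their difference of 0.03 had a 95% interval of -0.08 to 0.13. That difference was called in opposite directions under 2 alternatives, at 0.141 with library totals (adjusted p 0.033) and at -0.195 with the GC and length correction (adjusted p 0.0003).

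The adaptor DDB1 (ENSG00000167986, chromosome 11, 61299451 to 61342596, minus strand), shared by all CUL4 ligases, was the most abundant of the 10 per length of transcript. Its libraries read 524 and 529.9 CPM in parental cells off the drug and 565 and 583 on it, against 544.5 and 535 in resistant cells off the drug and 520.4 and 514 on it. Parental treated cells were thus the highest group, and the other 3 groups were not separated from each other in its order of levels. DDB1 rose by 0.12 in parental cells (adjusted p 0.00046; 0.081 and not called without parental indisulam replicate 2, 0.058 and not called with library totals), while resistant cells gave -0.06 (95% interval -0.12 to -0.0047, adjusted p 0.066). The resistant value was called without resistant untreated replicate 2 (-0.081), by the DESeq2 Wald test (-0.077) and with the GC and length correction (-0.09). The responses differed by -0.19 ± 0.04 (adjusted p 0.00036), or by -0.071 and not called with library totals. With the GC and length correction the untreated lines differed by -0.169 and were called, against 0.04 and not called without it.

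Of the scaffolds, CUL4A (ENSG00000139842, chromosome 13, 113208193 to 113267108, plus strand) had 97.4 and 95.3 CPM in parental cells off the drug and 94.0 and 96.7 on it, against 92.8 and 94.9 in resistant cells off the drug and 85.9 and 85.4 on it. Only the resistant cells on drug were set apart, and below the rest. CUL4A fell by 0.13 on the log2 scale with indisulam in the resistant line (adjusted p 0.00085) and gave -0.01 in the parental line (95% interval -0.08 to 0.05; -0.081 with library totals and -0.071 with a minimum mean of 1 CPM, both called). The difference of the responses, -0.12 (adjusted p 0.025), was called in the fit of all libraries but not in 6 of the 8 fits that left a library out (-0.109 to -0.077), namely without parental untreated replicate 2, parental indisulam replicate 2, or any of the 4 resistant libraries. It was likewise not called with library totals (-0.002), no filter (-0.094) or a minimum mean of 1 CPM (-0.032). The GC and length correction gave a called difference of -0.14 between untreated lines, against -0.04 and not called without it.

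Its paralog CUL4B (ENSG00000158290, chromosome X, 120505920 to 120604074, minus strand) had 155 and 155 CPM in parental cells off the drug and 179 and 180.5 on it, against 163 and 163 in resistant cells off the drug and 162 and 168 on it. Here the parental cells on drug were set apart, above the rest. CUL4B rose by 0.21 in parental cells (adjusted p 6.5e-07) and gave 0.02 in resistant cells (95% interval -0.04 to 0.08), a difference of -0.20 ± 0.04 (adjusted p 0.00026; -0.08 and not called with library totals). The untreated lines differed by 0.07 (adjusted p 0.026), a call lost in 5 of the 8 fits that left a library out (0.06 to 0.075): without either parental untreated library, resistant untreated replicate 1, or either resistant indisulam library. It was also lost with library totals (0.047) and the GC and length correction (0.038). Treated lines differed by -0.12 (adjusted p 0.00053), but by -0.033 with library totals and -0.042 with a minimum mean of 1 CPM, neither called. Per length of transcript, the ratio of CUL4A to CUL4B was 0.632 ± 0.0101 (SD, n = 2) in parental cells off the drug and 0.539 ± 0.00815 on it, and 0.584 ± 0.00998 in resistant cells off it and 0.527 ± 0.0157 on it.

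RBX1, the RING subunit that docks the E2 (ENSG00000100387, chromosome 22, 40951347 to 40973309, plus strand), had 56.45 and 58.1 CPM in parental cells off the drug and 67.2 and 71.3 on it, against 70.6 and 66.5 in resistant cells off the drug and 64.2 and 64.4 on it. The untreated parental group was the lowest and did not overlap the other 3. RBX1 rose by 0.27 ± 0.04 with indisulam in parental cells (adjusted p 5.7e-07), and untreated resistant cells were higher than untreated parental ones by 0.26 ± 0.04 (adjusted p 9.2e-07). These 2 comparisons share the parental untreated libraries.

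In the resistant line RBX1 fell by 0.09 on the log2 scale with the drug (adjusted p 0.034), which was not called without resistant untreated replicate 1 (-0.046), resistant indisulam replicate 1 (-0.096) or resistant indisulam replicate 2 (-0.098), nor with library totals (-0.045) or a minimum mean of 1 CPM (-0.066). On drug it was lower in resistant than in parental cells by 0.11 (log2 difference -0.11, adjusted p 0.011), not called without parental indisulam replicate 2 (-0.04) or either resistant indisulam library (-0.103 and -0.104). That call was also lost with library totals (-0.02, adjusted p 0.63), a minimum mean of 1 CPM (-0.029, adjusted p 0.48) and no filter (-0.083, adjusted p 0.051). The difference of the responses was -0.37 ± 0.05 (adjusted p 2.4e-06), the largest of the 10 genes in size, and the single one past a 1.2-fold change when tested against that size.

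UBE2G1, an E2 that extends ubiquitin chains on CUL4 substrates (ENSG00000132388, chromosome 17, 4269259 to 4366675, minus strand), had 51.3 and 52.5 CPM in parental cells off the drug and 61.3 and 62.1 on it, against 43.65 and 42.45 in resistant cells off the drug and 49.1 and 51.3 on it. It was lower in the resistant line and higher on drug in both lines. The rise was 0.25 in parental (adjusted p 8.9e-07) and 0.22 in resistant cells (adjusted p 1.2e-05), with a difference of -0.03 (95% interval -0.13 to 0.07). The lines differed by -0.27 when untreated (adjusted p 3.4e-07) and by -0.30 when treated (adjusted p 4.5e-08).

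NEDD8, the modifier itself (ENSG00000129559, chromosome 14, 24216857 to 24232367, minus strand), had 26.4 and 26.1 CPM in parental cells off the drug and 25.4 and 27.4 on it, against 26.8 and 23.7 in resistant cells off the drug and 25.1 and 25.3 on it. No neighbouring groups in its order differed, and its log2 differences lay between -0.06 and 0.01, with 95% intervals that reached from -0.17 to 0.11 over the 4 group comparisons. Without resistant untreated replicate 1 the untreated lines differed by -0.147 and were called, and with the GC and length correction parental cells rose by 0.219 on drug and the treated lines differed by -0.257. The GC and length correction also gave a called difference of responses for NEDD8, at -0.3. Of the 616 bases of its transcript, 44.2% also belong to exons of the readthrough gene NEDD8-MDP1 on the same strand, so reads there may not have been counted for NEDD8.

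COPS5, the catalytic subunit that removes NEDD8 (ENSG00000121022, chromosome 8, 67043079 to 67083783, minus strand), had 126 and 125.5 CPM in parental cells off the drug and 147 and 154 on it, against 118 and 118 in resistant cells off the drug and 129.6 and 128 on it. It rose with the drug by 0.26 ± 0.03 in parental (adjusted p 4.9e-08) and by 0.13 ± 0.03 in resistant cells (adjusted p 0.00086). The responses differed by -0.13 (adjusted p 0.0086; -0.108 to -0.085 and not called without parental indisulam replicate 2, resistant untreated replicate 1 or resistant indisulam replicate 2). That difference was not called either with library totals (-0.019), a minimum mean of 1 CPM (-0.05) or no filter (-0.111). Untreated lines differed by -0.09 (adjusted p 0.011), not called without either parental untreated library (-0.087 and -0.089) or resistant untreated replicate 2 (-0.075), by the DESeq2 Wald test (-0.068, adjusted p 0.1) or with the GC and length correction (-0.022, adjusted p 0.45). Treated lines differed by -0.22 (adjusted p 3e-07).

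CAND1, the exchange factor (ENSG00000111530, chromosome 12, 67269358 to 67319953, plus strand), had 246 and 249 CPM in parental cells off the drug and 285.5 and 290.4 on it, against 253 and 252 in resistant cells off the drug and 243 and 251 on it. As with CUL4B, parental cells on drug were above the rest, and no neighbours among the remaining groups differed. CAND1 rose by 0.22 ± 0.03 in parental cells (adjusted p 4.6e-07) and gave -0.03 in resistant cells (95% interval -0.09 to 0.03; -0.082 and called with the GC and length correction). The responses differed by -0.25 ± 0.04 (adjusted p 1.5e-05).

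**Figure D2:**
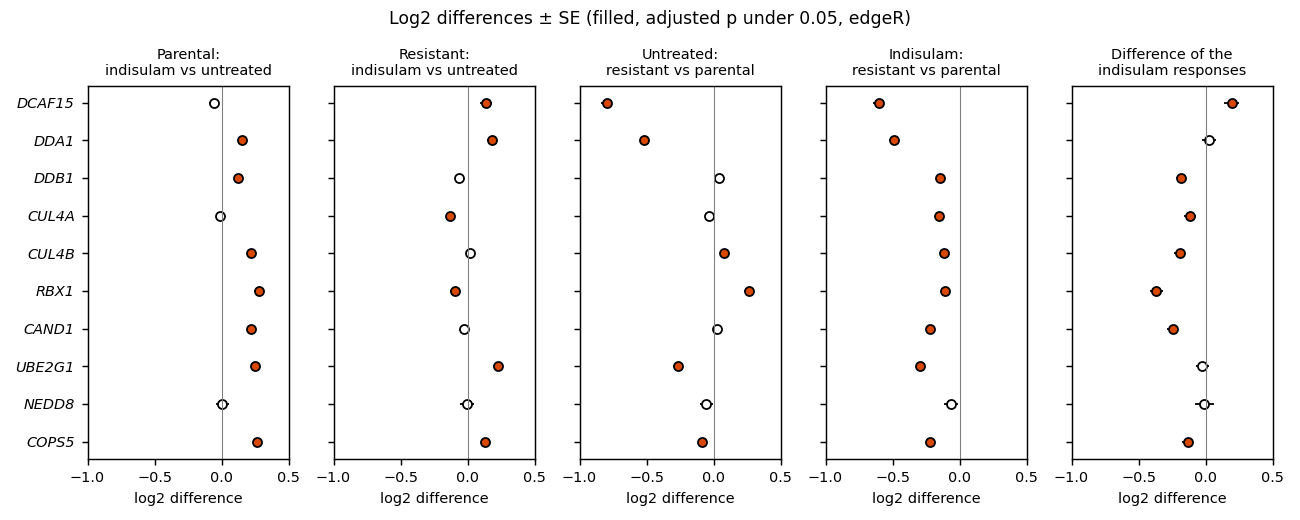
Log2 difference (x axis) of each of the 10 genes in 5 comparisons, with bars of 1 SE and filled points where the adjusted p was under 0.05. DCAF15 and DDA1 lie furthest to the left when the lines are compared, and RBX1 in the difference of the responses (resistant minus parental).

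Counts over the 10 genes have to be read against the share called among all 16661 tested genes, which was 50.1% to 69.5%. In parental cells on indisulam, 7 of 10 were higher and 0 lower (31.6% and 26.6% of all genes, 58.2% in either direction). In resistant cells 4 were higher and 2 lower (24.9% and 25.8%, 50.7% in all). Between untreated lines 2 were higher in resistant cells and 4 lower (30.3% and 29.9%, 60.1% in all), and between treated lines 0 higher and 9 lower (34.6% and 34.9%, 69.5% in all). For the difference of the responses, 1 was higher and 6 lower (22.7% and 27.5%, 50.1% in all). Scaled by library totals alone, which moved the median of all genes by 0.12, the differences of DDB1 (-0.071), CUL4A (-0.002), CUL4B (-0.08) and COPS5 (-0.019) were not called. With that scaling 6 genes rose and 2 fell in parental cells, 5 rose and 1 fell in resistant cells, 1 was higher and 4 lower between untreated lines, 0 higher and 7 lower between treated lines, and 2 had a positive and 2 a negative difference of responses.

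Few of these changes were large. Tested with glmTreat against a 1.2-fold change, 0 of 10 passed in parental cells (18.6% of all genes did) and 0 in resistant cells (15.9%), 2 between untreated lines (29.5%) and 2 between treated lines (39.9%), DCAF15 and DDA1 both times, and 1 for the difference of responses (18.5%). The median size of the log2 change over the 10 genes was below that over all genes in each comparison: 0.18 against 0.23 in parental cells, 0.11 against 0.20 in resistant cells, 0.08 against 0.26 between untreated lines, 0.19 against 0.35 between treated lines and 0.16 against 0.28 for the difference. These comparisons share libraries, so their counts are not independent.

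Per kilobase of transcript, a scale on which genes can be set side by side, DCAF15 and DDA1 were among the scarcest parts of the ligase. In parental untreated cells DDB1 stood at 124 CPM per kb, COPS5 at 96.9, RBX1 at 49.0, NEDD8 at 42.6, CUL4B at 26.2, CAND1 at 22.2, DCAF15 at 18.6, CUL4A at 16.6, DDA1 at 12.8 and UBE2G1 at 12.4. DDB1 messenger RNA exceeded that of DCAF15 by 6.68 ± 0.0310 fold (SD, n = 2) in parental cells off the drug and 7.59 ± 0.366 on it, and 11.9 ± 0.452 in resistant cells off it and 10.4 ± 0.364 on it. DDA1 per DCAF15 went from 0.689 ± 0.0115 in parental to 0.837 ± 0.00120 in resistant untreated cells. Lengths are those of 1 reference transcript a gene, which need not be the form these cells make.

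DCAF15 competes for DDB1 with other receptors, so its place among 21 receptors, itself included, was described. By level per kilobase it ranked 6 in parental cells with and without the drug, 12 in resistant cells off the drug and 9 in those on it, with DCAF13 on top in each group (97.1 to 119 CPM per kb). By log2 difference between untreated lines it was second lowest, after DET1 (-0.88, adjusted p 0.0096), whose mean was 0.296 CPM. Next came DCAF12 (-0.38) and DCAF10 (-0.37), and at the other end DCAF13 (0.30) and the DNA damage receptor DDB2 (0.68, adjusted p 3.2e-12) were higher in resistant cells. Of the 20 other receptors, 4 were higher and 6 lower, against 30.3% and 29.9% of all tested genes (3 and 8 with library totals).

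**Figure D3:**
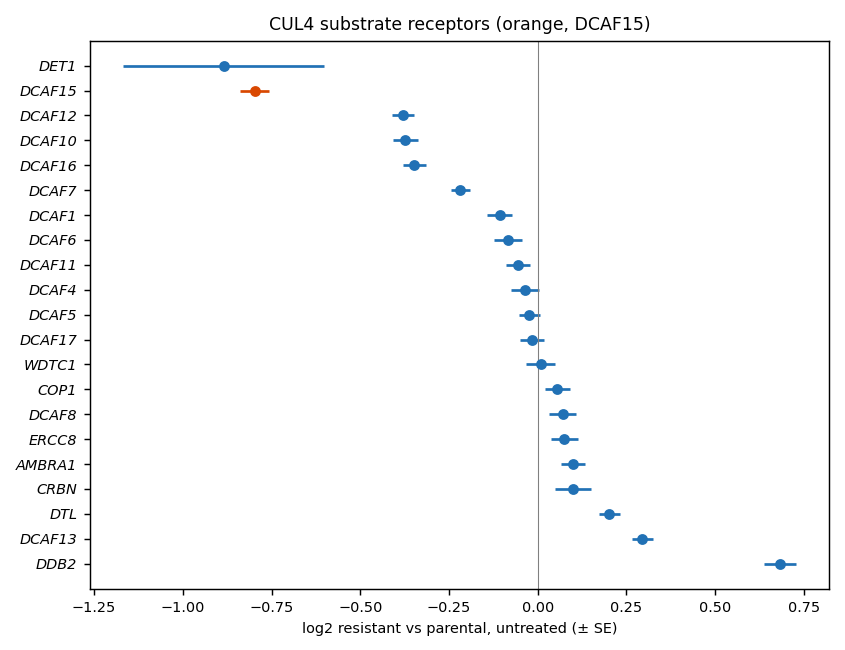
Log2 difference between resistant and parental untreated cells (x axis, bars of 1 SE) for 21 substrate receptors of CUL4 ligases, ordered from lowest to highest. DCAF15 at -0.80 is second after the scarce DET1, which has the widest error, and DDB2 is highest at 0.68.

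Both genes with the large difference lie on chromosome 19, and their surroundings were lower too. Of 38 other tested genes within 1 Mb of DCAF15, 26 were lower and 3 higher in untreated resistant cells, with a median log2 difference of -0.47. Around DDA1 26 of 52 were lower and 11 higher, with a median of -0.36. Within 1 Mb of the other 8 genes the medians lay between -0.15 (COPS5) and 0.17 (DDB1), and the median of all tested genes was -0.02.

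The lower stretch covered the first part of the chromosome. Over the first 20 Mb 331 of 493 tested genes were lower and 48 higher (median -0.47), past 25 Mb 178 of 657 were lower and 189 higher (median -0.01), and on the other chromosomes 4450 of 15483 were lower and 4809 higher. By bins of 5 Mb, the medians were -0.48, -0.57 and -0.51 in the first 3 bins, -0.24 in the bin that holds DDA1, and between -0.05 and 0.065 in the bins past 25 Mb, apart from -0.30 between 20 and 25 Mb. On the drug, the first 20 Mb had a median of -0.37 and the part past 25 Mb one of 0.15. For indisulam against untreated, the median of the first 20 Mb was -0.07 in parental and 0.02 in resistant cells. The resistant line had itself been selected on the drug, so line and past exposure cannot be told apart.

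**Figure D4:**
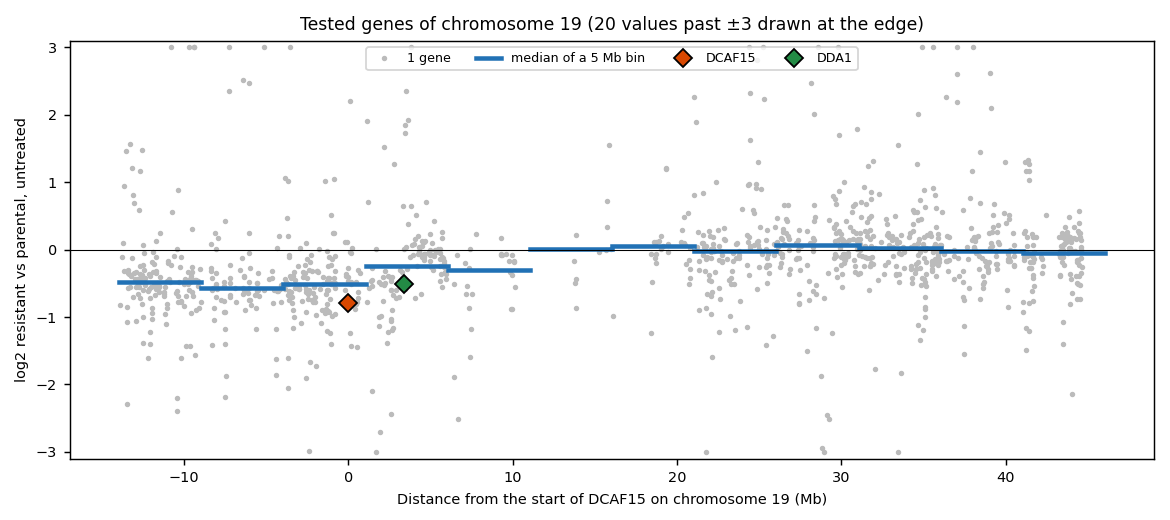
Log2 difference between resistant and parental untreated cells (y axis) for 1178 tested genes of chromosome 19 by distance from the DCAF15 start (x axis, Mb), with medians of 5 Mb bins as lines; 20 values past 3 in size are drawn at the edge. Most genes left of and around DCAF15 lie below 0, and DDA1 lies near the point from which the cloud returns to 0.

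DDA1 lay close to where the differences first returned to near 0. Farther on, between 20 and 25 Mb, 15 of 28 tested genes were lower again and 1 was higher (median -0.30). Among genes with a mean of at least 10 CPM, 185 of 195 that start more than 2 Mb before DDA1 were lower in untreated resistant cells (median -0.52, quartiles -0.65 and -0.40), as were 20 of 21 in the last 2 Mb before it (median -0.53). From 0.25 to 2.25 Mb past its start, 4 of 28 were lower and 7 higher (median -0.03, quartiles -0.08 and 0.09). On the drug, 174 of 195, 20 of 21 and 10 of 28 were lower in the same stretches, and 5, 1 and 11 were higher. These limits were set after the values had been seen, so the counts are a description. DDA1 itself, at -0.52, was at the median of the stretch, whereas DCAF15, at -0.80, was below its lower quartile.

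In 7 bins of GC content, genes of the other chromosomes had medians between -0.05 and 0.05, and those of the first 20 Mb of chromosome 19 between -0.77 and -0.32. After correction for GC content and length the medians were -0.58 over the first 20 Mb and -0.09 past 25 Mb. Among 138 blocks of 20 Mb over the genome with at least 50 tested genes, that of DCAF15 and DDA1 ranked 3 from the lowest, after 2 blocks of chromosome 9 (-0.70 and -0.64), and those of the other 8 genes ranked between 26 and 116. DNA was not analysed here.

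Genes that followed DCAF15 closely were over-represented in the same stretch, though most of them lay elsewhere. By Pearson correlation of log2(CPM + 1) over the 8 libraries, the 5 nearest of 8786 genes were TNPO2 (r = 0.998), MAP2K2 (0.997), HDGFL2 (0.995), ATG4D (0.994) and FOXL1 (0.994), of which the first 4 lie on chromosome 19 at 1.253 to 9.86 Mb from DCAF15 and FOXL1 on chromosome 16. TNPO2, a nuclear import receptor, went from 166 ± 0.355 CPM (SD, n = 2) in parental to 88.5 ± 4.49 in resistant untreated cells, and MAP2K2, a kinase of the MAPK pathway, from 141.5 ± 0.579 to 87.4 ± 0.726. Of 353 genes with an r of at least 0.95, 24.9% lay in the first 20 Mb of chromosome 19, against 2.91% of the genes compared. DDA1 was among them (0.958), and the other 8 genes ranged from -0.43 (RBX1) to 0.77 (UBE2G1). The 8 points share lines and treatments, so these values describe the design as much as the genes. A high r favours genes that are lower in the resistant line. The stretch was described as lower from the same libraries, so its share among these genes is not a separate result.

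Beyond the 10, 60 of 61 listed genes of the wider pathway could be tested, CAND2 being too scarce. The 61 include RBM39 and RBM23, the proteins recruited by the drug, which are also described on their own below. In parental cells on indisulam 31 rose and 12 fell (31.6% and 26.6% of all tested genes), or 24 and 17 with library totals. In resistant cells 14 rose and 23 fell (24.9% and 25.8% of all), a split that became 20 and 20 with library totals, 7 and 26 without resistant untreated replicate 2, and 8 and 23 without resistant indisulam replicate 2. Between untreated lines 14 were higher and 16 lower in resistant cells (30.3% and 29.9% of all), or 12 and 21 with library totals. Between treated lines 6 were higher and 42 lower (34.6% and 34.9% of all), or 12 and 32 with library totals, and the higher ones numbered 3 without either parental untreated library or resistant indisulam replicate 1 and 4 without resistant indisulam replicate 2. A positive difference of responses was called in 7 and a negative one in 35 (22.7% and 27.5% of all), or 11 and 16 with library totals.

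Of the 9 other subunits of the COP9 signalosome, 6 rose and 1 fell in parental cells, where 31.6% of all tested genes rose and 26.6% fell (5 and 2 with library totals). COPS4 rose by 0.34 and COPS2 by 0.30, and the subunit GPS1 fell by 0.16. In resistant cells 0 rose and 4 fell (COPS7A by 0.26, COPS3 by 0.22), against 24.9% and 25.8% of all genes. On the drug, 8 of the 9 were lower in resistant cells, as were 34.9% of all genes (6 with library totals), with log2 differences of -0.48 for COPS2 and -0.43 for COPS6. The difference of responses was negative in 7, against 27.5% of all genes (5 with library totals), with -0.36 for COPS2 and -0.35 for COPS8.

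Among 10 neddylation enzymes, which charge NEDD8 and hand it to cullins, 5 rose and 1 fell in parental cells (2 and 2 with library totals) and 2 rose and 3 fell in resistant ones (3 and 2). In either direction these are 6 and 5 of 10, near the 58.2% and 50.7% of all tested genes. NAE1, a subunit of the NEDD8-activating enzyme, fell in both (by 0.37 and 0.48), and the co-E3 DCUN1D1 rose in both (by 0.26 and 0.15). The catalytic subunit of that enzyme, UBA3, rose in parental cells (0.14) and had a difference of responses of -0.25 (adjusted p 0.0004).

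Among 11 enzymes that move ubiquitin to cullin substrates, 7 rose and 2 fell in parental cells, against 31.6% and 26.6% of all tested genes (5 and 2 with library totals). ARIH2 (0.35) and UBA6 (0.28) rose, and UBE2G2, the paralog of UBE2G1, fell by 0.31. Between untreated lines 4 were higher and 4 lower in resistant cells, against 30.3% and 29.9% of all genes (4 and 5 with library totals). Among the lower ones CDC34 (-0.30), an E2 of cullin ligases, was the one gene of the wider pathway in the first 20 Mb of chromosome 19. On the drug the E2 UBE2R2 had a log2 difference of -0.57 between the lines. Of the other cullins and RING proteins, CUL5 (0.37) and its RING partner RNF7 (0.34) rose in parental cells, and CUL7 had a positive difference of responses (0.33, adjusted p 1.7e-05). Over the 8 tested genes of that list, the difference was positive in 2 and negative in 6, against 22.7% and 27.5% of all genes. CUL2 (-0.25) and GLMN (-0.24) were among the negative ones. The 3 wider pathway genes on chromosome 9, DCAF10, DCAF12 and UBE2R2, were all lower in untreated resistant cells, as were 29.9% of all tested genes. They lie between 20 and 40 Mb, a block whose 115 tested genes had a median log2 difference of -0.37, so their surroundings were lower too.

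RBM39, the protein that indisulam brings to DCAF15, is known to regulate its own messenger RNA. Its level rose from 334 ± 3.25 to 724 ± 10.8 CPM in parental cells (SD, n = 2; log2 difference 1.11 ± 0.03, adjusted p 4.9e-18) and from 305 ± 8.58 to 584 ± 9.62 CPM in resistant cells (0.94 ± 0.03, adjusted p 7.3e-18). All treated libraries were above all untreated ones, and the rise was smaller in the resistant line by 0.18 (difference -0.18, adjusted p 0.00087). RBM23, a paralog also recruited by the drug, rose by 0.21 in parental cells (adjusted p 3.4e-06) and gave 0.04 in resistant cells (adjusted p 0.28), a difference of -0.17 (adjusted p 0.0029).

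Some reads could be shared with overlapping genes. On the opposite strand, PCID2 overlaps CUL4A and holds 30.3% of the reads of that pair, CSPP1 overlaps COPS5 with 35.3%, and ANO8 overlaps DDA1 with 14.5%. The libraries kept strand, but the strand setting of the counting is not given in the sources used here. PPP1R42 also overlaps COPS5. Within the reference transcripts used for length, 1.88% of DDA1 bases fall in exons of another gene on the opposite strand. For COPS5 it is 15.3% of bases, on the same strand, where counting by strand would not separate the reads. None of the reference transcript bases of DCAF15, DDB1, CUL4A, CUL4B, RBX1, CAND1 or UBE2G1 fall in exons of another gene. Over all annotated exons, 6.45% of DCAF15 bases are shared with PODNL1, on the opposite strand, which holds 0.93% of the reads of that pair. For DDB1 it is 3.18% of bases, with TKFC, and for CUL4A 5.59%, with PCID2, both on the opposite strand.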

How the data were processed

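RNA from the 8 Panc10.05 libraries was sequenced by the authors as stranded, polyadenylated, paired-end libraries, trimmed with SeqPurge and aligned with HISAT2 2.2.1 to GRCh38, and duplicates were marked with Picard. The authors deposited the reads counted for each gene (raw counts), a table per library. HTSeq is named in the submitters' processing notes, while its strand setting and annotation are not given in the sources used here. Between 37.9% and 44.9% of the sum of all lines was in 9 lines that name no gene and stayed out of library sizes. Symbols and positions came from GENCODE release 44, which matched 60419 of 60675 identifiers.

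Counts were fitted with edgeR 4.0.16 in R 4.3.3 (filterByExpr, TMM, robust quasi-likelihood fit of 4 group means on all 8 libraries, 4 residual degrees of freedom), and a Benjamini-Hochberg adjusted p under 0.05 over all 16661 genes was called. CPM are counts scaled by TMM to a common library size. The code was tested on simulated counts. An exact two-sided permutation test of 2 against 2 libraries cannot go below p = 0.333 and was not used. Intervals are 95% intervals of the fit and cover the spread between libraries. Counting error and the spread between libraries were not estimated separately.

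The genes and lists were chosen with earlier results of these data known. Beside the 10 genes, the text names per list at most the 2 largest rises and 2 largest falls among called genes with a mean of at least 10 CPM per comparison, RBM39, and the 5 genes most correlated with DCAF15 over libraries. RBM23, DET1, the chromosomal stretches and the genes named for their place were chosen after their values were seen. Alternatives were DESeq2 1.42.0 size factors and Wald test, library totals, a minimum mean of 1 CPM, no filter, the groups compared alone, glmTreat against 1.2-fold, a GC and length correction (mgcv 1.9.3), the replicate number as a block, and each library left out. Groups share replicate numbers in the titles, but same-numbered libraries did not deviate together (correlations -0.06 to 0.02), so the numbers were not taken as pairs.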

Additional observations from a re-analysis of the deposited data

Results flagged for a closer look

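By the interaction test of the main fit, 7 of the 10 genes were called as responding unequally to indisulam in parental and resistant cells. Given as the resistant minus the parental log2 response, the difference was 0.19 for DCAF15, -0.19 for DDB1, -0.12 for CUL4A, -0.20 for CUL4B, -0.37 for RBX1, -0.25 for CAND1 and -0.13 for COPS5. Several of these depended on the processing. With library totals DDB1 (-0.071), CUL4A (-0.002), CUL4B (-0.08) and COPS5 (-0.019) were not called. DCAF15 was not called by the DESeq2 Wald test (0.166) and turned to -0.157 with the GC and length correction. Among all tested genes 50.1% had such a difference, so 7 of 10 is a share to read against a high background. The treated resistant cells had been on the drug far longer than the treated parental cells, and length of exposure and line cannot be told apart.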

How the results depend on the processing

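Of 50 values (10 genes in 5 comparisons), 35 were called and 5 of these kept call and direction under every alternative. One of these alternatives, glmTreat, tests against a 1.2-fold change rather than against no change, and by itself it lost the call of 30 values. The 5 are the values that glmTreat still called, and no other alternative took the call from any of them. Their number therefore reflects the size of the changes and does not measure how far the calls depended on the processing. Tested with glmTreat against 1.2-fold, the genes called numbered 0 and 0 for indisulam in parental and resistant cells, 2 and 2 between untreated and treated lines, and 1 for the difference of responses. With library totals alone, 4 differences of responses were called in place of 7, on a scale that moved the median of all genes by 0.12. The splits into higher and lower genes moved with it, with values beside most counts. No such value is given for the COP9 subunits in resistant cells or for the responses of the other cullins and RING proteins. Those splits are not shown to be stable. The GC and length correction moved that median by -0.13 for the difference of responses and by -0.19 between treated lines, and 4 values changed sign under it: DCAF15 in parental cells on drug (0.165), DDB1 between untreated lines (-0.169), and the differences of responses of DCAF15 (-0.157) and DDA1 (-0.195). The cause was not tested. The fit with the replicate block gave the same call and direction for all 50 values. Leaving out a library changed the call of 11 values. For the neighbours of DCAF15 and DDA1, settings chosen after the data were seen kept the median below 0.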

Other observations

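Chromosome 9 held 5 of the 7 lowest blocks of 20 Mb when untreated lines were compared, with medians from -0.70 to -0.36, and the 3 blocks with the highest medians were all on chromosome 20 (0.21 to 0.28). These blocks hold none of the 10 genes.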
